A study of Homo sapiens with 6 samples.

Results

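The genes described here were 10 members of the BCL2 family, the proteins that decide whether a cell under stress opens its mitochondria and dies. They were taken by symbol from the count files of 6 libraries, with repeated entries of a symbol added together, and are 10 of the 24462 symbols in those files. BCL2, BCL2L1, BCL2L2, MCL1 and BCL2A1 encode survival proteins, BAK1 encodes a pore-forming effector, and BID, BIK, BMF and BCL2L11 encode BH3-only proteins, which signal death. The libraries compared 1CT, an immortalized but otherwise wild type line of human colonic epithelial cells (HCEC), with 1CT-A, its counterpart in which the tumour suppressor APC was depleted by knockdown. Each line gave 3 libraries of untreated cells grown in the same medium, a 4:1 mix of DMEM and M199 with EGF, hydrocortisone, insulin, selenite, transferrin and 2% serum. Loss of APC is an early step of colorectal cancer, and the comparison asks how transcripts differ between the depleted line and 1CT, cells of normal origin. No control knockdown line is among the 6 libraries. Depletion of APC therefore cannot be told apart from other differences between the lines, such as transduction, selection or time in culture. Both groups come from 1 line, so no second line or donor stands behind a difference. The labels do not say whether the 3 libraries of a line came from separate cultures, and p-values therefore measure only the spread between these libraries, which may be technical.

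BCL2 family proteins meet on the outer mitochondrial membrane. The survival proteins, called guardians here, bind and hold the effectors BAX and BAK (the product of BAK1) and also the BH3-only proteins, which are switched on by damage, loss of growth factors or death receptors. When enough BH3-only protein is active, the effectors assemble into pores, cytochrome c leaks out and caspases are started. In the gut lining the guardians BCL-xL (from BCL2L1) and MCL1 are known to protect crypt cells, and several guardians are drug targets in cancer.

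The libraries are 3′ libraries, which count 1 tag near the end of a transcript, so a value cannot tell apart the long and short splice forms of BCL2L1, MCL1 or BCL2L11. It is also not scaled by length. Levels of members were compared between lines for the same gene or the same ratio, while marker sums add CPM over genes. Values are given as CPM, counts scaled to the total of each library, and intervals of fold changes come from edgeR and the spread between libraries. Poisson and counting intervals cover counting error only, because reads without molecular identifiers are not independent molecules. In bulk RNA, fewer cells that express a gene and less RNA per cell cannot be told apart.

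Libraries of 1CT held 7788679 to 8452258 counts and those of 1CT-A 11158108 to 12602988, so that 3 counts correspond to between 0.355 and 0.385 CPM for 1CT libraries and between 0.238 and 0.269 CPM for 1CT-A libraries. APC itself, the depleted gene, was at 46.6 ± 2.75 CPM in 1CT and at 31.9 ± 2.21 CPM in 1CT-A (SD, n = 3 each), with no overlap and a log2 fold change of -0.58 (SE 0.09, edgeR adjusted p = 1.76e-04). A 1CT library, replicate 3, stood apart from the other two, since the chi-square of its counts per degree of freedom was 7.06 and 8.42 against them, compared with 3.62 between them and 3.0 to 4.35 between 1CT-A libraries. The epithelial identity in the labels was not borne out by most of its usual markers. EPCAM, VIL1 and CDX1 were at 0 in all 6 libraries, 5 of 9 epithelial markers never passed 3 counts, and the summed epithelial level was between 13.4 and 17.4 CPM for 1CT libraries and between 3.23 and 7.20 CPM for 1CT-A. Most of this sum was KRT18, which was detected in all 6 libraries. It had 84, 109 and 82 counts in 1CT and 36, 80 and 62 in 1CT-A. KRT19 had 20, 27 and 34 counts in 1CT and 0 in every 1CT-A library. The 6 mesenchymal markers summed to between 44499 and 52548 CPM for 1CT libraries and between 21774 and 23210 CPM for 1CT-A. Fibronectin (FN1) made up most of this sum, with means of 44241 and 18128 CPM, and its members moved in both directions, since FN1, COL1A1 and VIM were lower in 1CT-A, COL3A1 and ZEB1 were higher, and COL1A2 did not pass. The blood markers PTPRC and CD3E were at 0, and the blood list summed to 9.05 to 15.1 CPM, most of it CD68. Endothelial markers stayed at or under 0.514 CPM. These marker levels differ between the lines together with the members described next, and their part in those differences was not tested.

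Of the 10 members, 6 had enough counts to be tested and 3 of these passed an adjusted p under 0.05. MCL1 was higher in 1CT-A, BCL2L1 and BID were lower, and BCL2L2, BAK1 and BCL2L11 did not pass. The share of all 12514 tested genes that passed was 51.0%, with 25.0% higher and 26.0% lower in 1CT-A, so 3 of 6 is close to the background. The same 3 members had values that did not overlap between the lines, against 59.7% of all tested genes. No tested member passed the study's own thresholds of a fold of 2 and an unadjusted p under 0.01, which 13.4% of tested genes passed. The median log2 fold change of the 6 tested members was 0.05, beside -0.01 over all tested genes.

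**Figure D1:**
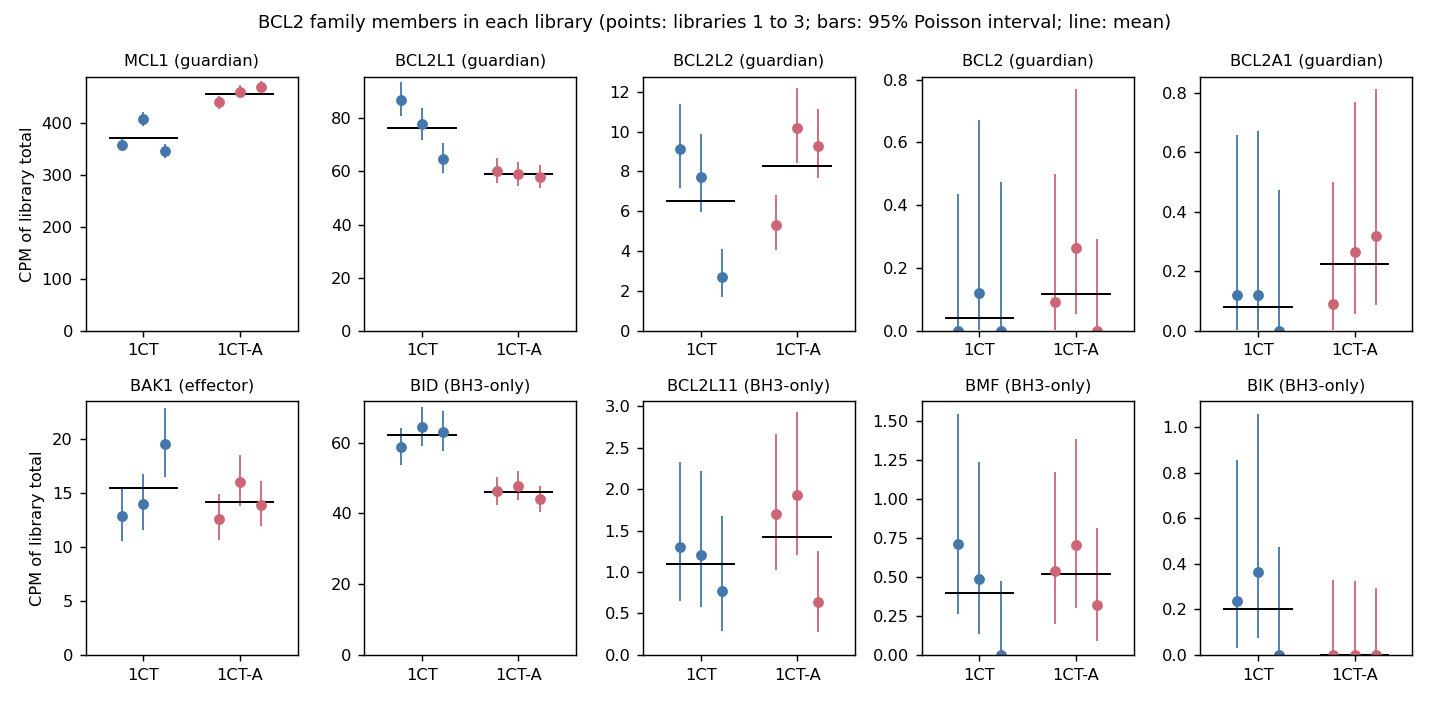
CPM of the library total (y axis, linear and from 0, with its own range in each panel) for the 10 members in the 3 libraries of 1CT (blue) and of 1CT-A (red), with 95% Poisson intervals as bars and the group mean as a line. MCL1, BCL2L1 and BID separate the lines, while the bars of BCL2, BCL2A1, BIK and BMF reach down to or near 0.

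MCL1 encodes a short-lived guardian that holds BAK and several BH3-only proteins, and in GENCODE release 44 on GRCh38 its gene spans 150560895 to 150579738 of chromosome 1, minus strand. It shares up to 328 bases of exon with ADAMTSL4-AS1 on the same strand, which had 0 to 12 counts per library. On the opposite strand it overlaps ADAMTSL4, which had 9 to 19. The level of MCL1 in 1CT was 358, 408 and 345 CPM, from 3027, 3375 and 2689 counts. In 1CT-A it was 440, 461 and 469 CPM, from 4907, 5247 and 5908 counts. All 3 libraries of 1CT-A lay above all 3 of 1CT, and replicate 2 was the highest 1CT library. The means were 370 ± 32.9 CPM and 456 ± 14.9 CPM (SD, n = 3 each), a 1.20-fold rise (95% interval 1.08 to 1.34) or 0.26 on the log2 scale (SE 0.07, edgeR quasi-likelihood test, adjusted p = 0.00773). The exact two-sided permutation test of the CPM values gave p = 0.1, which is the smallest value 3 against 3 can give, for MCL1, BCL2L1 and BID alike. The rise was modest within the transcriptome, at the 71.0 percentile of the log2 fold changes of all tested genes.

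BCL2L1 encodes BCL-xL, the guardian that also holds BAX and BAK in resting cells, from a gene that spans 31664452 to 31723989 of chromosome 20, minus strand, in the same annotation. Its exons overlap those of ABALON on the opposite strand, which had 9 to 11 counts per library. It was at 87.1, 77.8 and 64.8 CPM in 1CT, from 736, 644 and 505 counts. In 1CT-A it was at 60.2, 59.1 and 57.9 CPM, from 672, 673 and 730 counts. The 1CT-A libraries lay close together and under every 1CT library, of which replicate 3 was the nearest to them. The means were 76.6 ± 11.2 CPM and 59.1 ± 1.15 CPM (SD, n = 3 each), with a fold of 0.751 (95% interval 0.648 to 0.870) and a log2 fold change of -0.41 (SE 0.10, edgeR adjusted p = 0.00347). Without 1CT replicate 3 the log2 fold change was -0.50, and without 1CT replicate 1 it was -0.31, with an edgeR adjusted p of 4.31e-05 and 0.0201, respectively.

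BCL2L1 and MCL1, the guardians with at least 505 counts in every library, thus moved in opposite directions. Their ratio inside a library does not depend on how the libraries are scaled. It was added to the comparisons after both values had been seen. Counts of MCL1 per count of BCL2L1 were 4.11, 5.24 and 5.33 in 1CT and 7.30, 7.80 and 8.09 in 1CT-A. The ratio was higher in every 1CT-A library than in any 1CT library, by 0.67 on the log2 scale. It is a ratio of tags and not of protein, and because it was chosen for the opposite movement it has no test.

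BCL2L2 encodes BCL-w, a guardian close to BCL-xL. Its values were 9.11, 7.73 and 2.70 CPM in 1CT and 5.29, 10.2 and 9.28 CPM in 1CT-A. The lines overlapped, with replicate 3 low in 1CT and replicate 1 low in 1CT-A. The log2 fold change was 0.30 (SE 0.33, 95% interval -0.41 to 1.00, edgeR adjusted p = 0.477), which leaves a range from 0.752-fold to 2.00-fold. Without 1CT replicate 3 it was -0.05. BCL2L2 is also uncertain as a count. In GENCODE release 44 on GRCh38 it spans 23298790 to 23311751 of chromosome 14, plus strand, and shares up to 440 bases of exon with the readthrough gene BCL2L2-PABPN1 on the same strand. BCL2L2-PABPN1 had 3225 to 6868 counts per library while PABPN1 had at most 3. Its level was 417 ± 2.41 CPM in 1CT and 553 ± 16.9 CPM in 1CT-A (SD, n = 3 each), a log2 fold change of 0.37 (SE 0.06, edgeR adjusted p = 2.70e-04). How the reads of these 3 symbols were divided is not given in the sources used here.

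BCL2 and BCL2A1, the other guardians, were at the edge of detection. BCL2, the founding member of the family, had 0, 1 and 0 counts in 1CT and 1, 3 and 0 in 1CT-A. BCL2A1, which encodes BFL-1 and is known from blood cells, had 1, 1 and 0 counts in 1CT and 1, 3 and 4 in 1CT-A. Neither could be tested, and no difference was detectable at this depth. Summed over libraries, BCL2A1 had 2 counts in 1CT and 8 in 1CT-A, a ratio of CPM of 2.79 with a 95% counting interval of 0.557 to 27.0.

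BAK1 encodes BAK, the effector that sits in the mitochondrial membrane and forms the pore together with BAX. It was at 12.9, 14.0 and 19.5 CPM in 1CT and at 12.6, 16.1 and 13.9 CPM in 1CT-A. The lines overlapped, and the highest value of all was that of 1CT replicate 3. The log2 fold change was -0.16 (SE 0.17, 95% interval -0.52 to 0.20, edgeR adjusted p = 0.444), and it was 0.05 without that library. BAX, the partner effector and not a member, was at 242 ± 50.3 CPM in 1CT and 263 ± 32.6 CPM in 1CT-A (SD, n = 3 each), with a log2 fold change of 0.08 (SE 0.13, edgeR adjusted p = 0.630).

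BID encodes the BH3-only protein that caspase-8 cuts to carry a death receptor signal to the mitochondria, from a gene that spans 17734138 to 17774770 of chromosome 22, minus strand. In 1CT it was at 58.7, 64.5 and 63.2 CPM, from 496, 534 and 492 counts. In 1CT-A it was at 46.2, 47.8 and 44.0 CPM, from 516, 545 and 555 counts. Every 1CT-A library lay under every 1CT library, and the libraries of each line lay close together. The means were 62.1 ± 3.04 CPM and 46.0 ± 1.91 CPM (SD, n = 3 each), with a fold of 0.722 (95% interval 0.638 to 0.816) and a log2 fold change of -0.47 (SE 0.08, edgeR adjusted p = 3.84e-04). BID had the lowest adjusted p of the 6 tested members, and its fall lay at the 22.3 percentile of all tested genes.

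BCL2L11 encodes BIM, the BH3-only protein known for the response to lost growth factor signals. Its exons overlap those of MIR4435-2HG on the opposite strand by up to 727 bases, and that symbol was not among those counted. BCL2L11 had 11, 10 and 6 counts in 1CT and 19, 22 and 8 in 1CT-A. Replicate 3 was the lowest library of each line, and its CPM in 1CT-A, 0.635, lay under all 3 values of 1CT. The log2 fold change was 0.31 (SE 0.44, 95% interval -0.64 to 1.27, edgeR adjusted p = 0.581). It was 0.69 without 1CT-A replicate 3 and 0.03 without 1CT-A replicate 2, with an adjusted p between 0.180 and 0.963 over the 13 alternative fits (edgeR, DESeq2 or limma) that gave a value. At these counts a 2-fold rise of BCL2L11 lies within the interval and a 2-fold fall lies outside it.

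BMF and BIK were too low to be tested. BMF, a BH3-only protein held on the cytoskeleton, had 6, 4 and 0 counts in 1CT and 6, 8 and 4 in 1CT-A. Its summed ratio was 1.26 with a 95% counting interval of 0.550 to 3.05. BIK, a BH3-only protein of the endoplasmic reticulum, had 2, 3 and 0 counts in 1CT and 0 in each library of 1CT-A. Summed over libraries this was 5 against 0 counts, both at or under 3 counts in every library, so no fold is given. Without the filter on low counts the edgeR adjusted p was 0.0687 for BIK, 0.734 for BMF, 0.447 for BCL2A1 and 0.575 for BCL2.

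**Figure D2:**
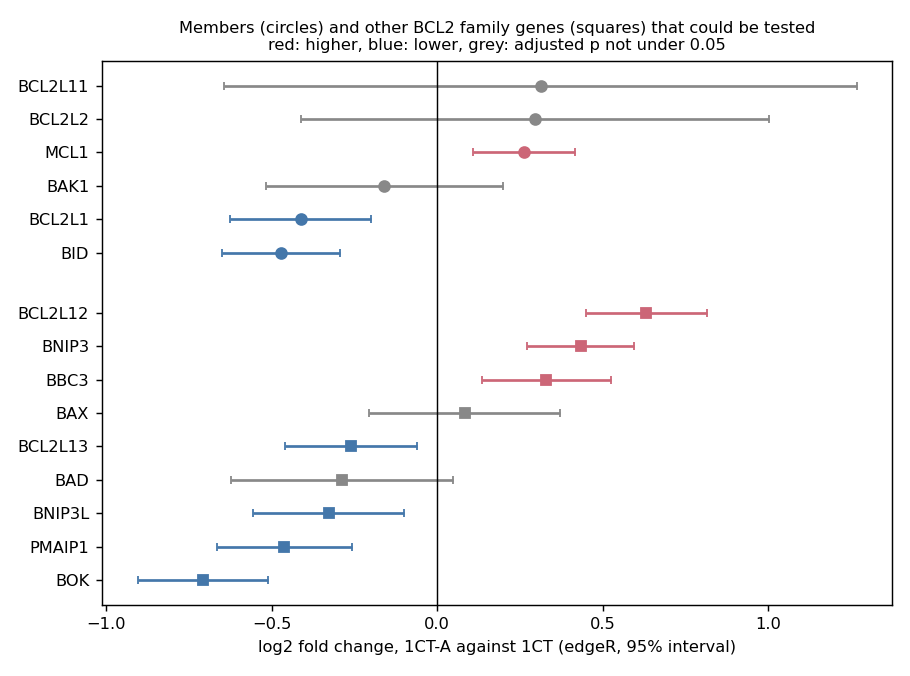
Log2 fold change between 1CT-A and 1CT (x axis) with its 95% interval from edgeR for the 6 tested members (circles) and the 9 tested genes of the wider BCL2 family (squares), coloured by call. Intervals of MCL1, BCL2L1 and BID exclude 0, and those of BCL2L2 and BCL2L11 are the widest.

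The balance of members inside a library was measured by 7 further count ratios, each compared by an exact two-sided permutation test with adjustment over the 7. BID relative to MCL1 was 0.164, 0.158 and 0.183 in 1CT and 0.105, 0.104 and 0.0939 in 1CT-A. All 1CT-A libraries were lower, by a log2 difference of -0.74 (exact permutation p = 0.1, adjusted p = 0.7). BID and MCL1 each separated the lines already, in opposite directions, so this ratio is no separate evidence. A p of 0.1 is also the smallest that this permutation test can give. The other 6 ratios overlapped between the lines. BID relative to BCL2L1, both of which were lower in 1CT-A, had a log2 difference of -0.07 (exact permutation p = 0.7), and it was 0.06 without 1CT replicate 3. Guardians relative to BAK1 had log2 differences of 0.41 for MCL1, -0.25 for BCL2L1 and 0.56 for BCL2L2, and 1CT replicate 3, with its high BAK1 and low BCL2L2 values, was the lowest library in each of the 3 ratios. Without it the differences were 0.19, -0.55 and -0.15. BCL2L11 had log2 differences of -0.07 relative to MCL1 and 0.60 relative to BCL2L1.

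**Figure D3:**
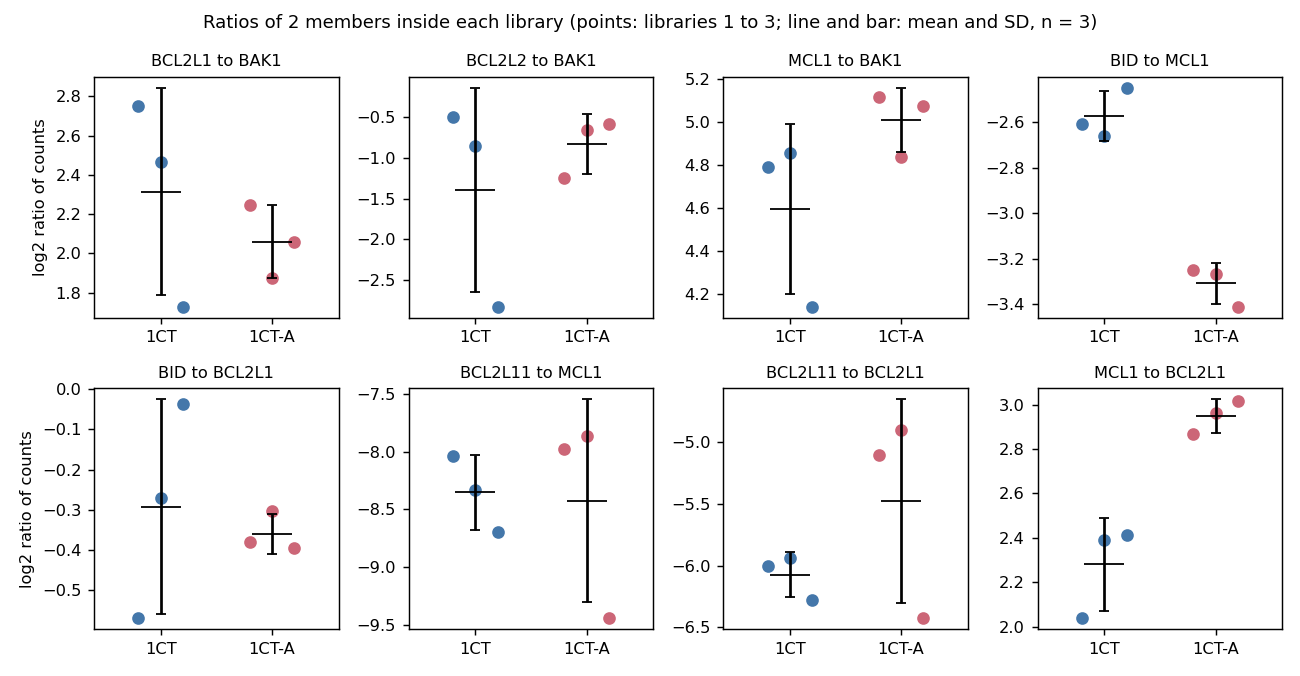
Log2 ratio of the counts of 2 members in each library (y axis, its own range in each panel, not starting at 0) for 1CT (blue) and 1CT-A (red), with the mean and SD (n = 3) as line and bar. BID to MCL1 and MCL1 to BCL2L1 separate the lines, and 1CT replicate 3 stands at one end of the ratios to BAK1.

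Promoter sequences are shown for the members that fell and for those whose promoter held a searched motif, because the regulators of these genes were also measured. RefSeq's table for GRCh38.p14 held 7 of the 10 members, BCL2, BCL2L1, BCL2A1, BAK1, BID, BMF and BCL2L11, and the window read was the 250 bases before RefSeq's start of the gene, which can differ from that of GENCODE, 5′ to 3′ on the strand of the gene. The searched motifs were CTTTGAA or CTTTGAT for TCF/LEF, the factors of the Wnt pathway that APC restrains, GTAAACA for FOXO, CACGTG for the E-box, TGACTCA for AP-1, TTTCCCGC or TTTGGCGC for E2F, CCGGAAG for ETS and TGACGTCA for CRE, on both strands. Capitals mark a match.
BCL2L1, chr20:31723964-31724213, minus strand: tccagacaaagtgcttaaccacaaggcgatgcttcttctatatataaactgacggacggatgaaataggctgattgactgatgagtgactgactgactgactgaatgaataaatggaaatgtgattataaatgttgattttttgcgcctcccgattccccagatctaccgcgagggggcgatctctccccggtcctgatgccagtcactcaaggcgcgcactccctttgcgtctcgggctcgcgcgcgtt
BID, chr22:17774470-17774719, minus strand: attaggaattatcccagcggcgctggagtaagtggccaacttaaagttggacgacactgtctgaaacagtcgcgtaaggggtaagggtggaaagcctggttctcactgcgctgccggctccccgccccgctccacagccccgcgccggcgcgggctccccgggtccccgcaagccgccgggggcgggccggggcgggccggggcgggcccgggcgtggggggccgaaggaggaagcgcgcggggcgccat
BAK1, chr6:33580277-33580526, minus strand: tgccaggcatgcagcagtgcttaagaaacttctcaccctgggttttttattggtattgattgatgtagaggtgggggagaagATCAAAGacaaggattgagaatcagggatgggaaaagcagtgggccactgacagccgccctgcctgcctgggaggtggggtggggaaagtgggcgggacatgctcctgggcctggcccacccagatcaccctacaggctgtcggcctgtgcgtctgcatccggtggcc
BCL2L11, chr2:111120664-111120913, plus strand: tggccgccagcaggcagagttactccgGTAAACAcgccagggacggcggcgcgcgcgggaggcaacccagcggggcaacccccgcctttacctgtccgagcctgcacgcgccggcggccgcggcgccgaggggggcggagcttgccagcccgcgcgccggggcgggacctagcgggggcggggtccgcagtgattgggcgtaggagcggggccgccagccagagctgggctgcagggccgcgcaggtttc

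BAK1 held the TCF/LEF letters once, as ATCAAAG on its own strand beginning 168 bases before the start, a motif that 6.03% of 27305 promoters of the same length hold. BCL2L11 held the FOXO letters once, as GTAAACA beginning 223 bases before the start, beside 2.98% of all promoters. The other 5 members with a sequence held none of the 7 motifs in this window. A match is a run of letters and not a measured site. The GC content of the window was 50.0% in BCL2L1, 72.0% in BID, 58.0% in BAK1 and 76.8% in BCL2L11, around a median of 58.0% over all promoters.

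Transcription factors known to control BCL2 family genes were a list of 12, of which 11 were tested, 1 was higher and 4 were lower, with a median log2 fold change of -0.19. The 5 of 11 that passed are under the 51.0% of all tested genes. FOXO1, which is known to raise BIM, was listed at 58, 69 and 53 counts in 1CT and at 2, 8 and 9 in 1CT-A, a log2 fold change of -3.77 (edgeR adjusted p = 1.04e-06). FOXO3, the better known activator of BCL2L11, had a log2 fold change of -0.15 that did not pass. JUN, a subunit of AP-1, fell by 0.74 on the log2 scale, while E2F1, a driver of the cell cycle, rose by 0.80. BCL2L11 did not pass, but with 6 to 22 counts per library its interval was wide. A link between BCL2L11 and FOXO1 was not tested.

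The wider BCL2 family, 13 genes that are not among the 10, also held genes of both directions. Of its 9 tested genes 3 were higher and 4 lower, beside 25.0% higher and 26.0% lower of all tested genes, with a median log2 fold change of -0.26. BBC3, the gene of the BH3-only protein PUMA, was at 33.8 ± 0.84 CPM in 1CT and 43.7 ± 3.12 CPM in 1CT-A (SD, n = 3 each), a log2 fold change of 0.33 (SE 0.09, edgeR adjusted p = 0.00835). PMAIP1, the gene of the MCL1 partner NOXA, fell from 40.3 ± 3.25 to 30.0 ± 1.78 CPM (SD, n = 3 each), a log2 fold change of -0.46 (SE 0.09, edgeR adjusted p = 0.00120). MCL1 and PMAIP1, whose proteins bind each other, therefore had opposite signs, as did the BH3-only genes BBC3 and BID. Other pairs shared a sign, since BID and PMAIP1 were both lower and MCL1 and BBC3 both higher. Such pairs of signs, here and below, were not tested. BCL2L12 rose by 0.63 and BNIP3, a mitophagy receptor, by 0.43, while BOK, a BAX-like effector, fell by 0.71 on the log2 scale. BNIP3L fell by 0.33 and BCL2L13 by 0.26, but both had overlapping libraries and lost their call under several alternatives. BAX and BAD did not pass, and HRK, BCL2L10, BCL2L14 and BCL2L15 had at most 4 counts in any library and were not tested.

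In the list of mitochondrial release and apoptosome genes 5 of 10 were higher and 0 lower, beside 25.0% higher and 26.0% lower of all tested genes, with a median log2 fold change of 0.28. The 5 of 10 that passed are close to the background of 51.0%. CYCS, cytochrome c itself, rose by 0.37, the protease gene HTRA2 by 0.37, and MTCH2, whose product receives cut BID on the mitochondrion, by 0.28. MTCH2 and BID thus had opposite signs. In the list of caspases and their nuclear substrates 5 of 10 were higher and 1 lower, beside the same 25.0% and 26.0% of all tested genes, with a median of 0.34.

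CASP8, the protease that cuts BID, had the largest rise of that list. It had 127, 88 and 45 counts in 1CT and 304, 378 and 370 in 1CT-A. The lines did not overlap, and 1CT replicate 3 was the lowest library. The means were 10.5 ± 4.63 CPM and 29.9 ± 3.01 CPM (SD, n = 3 each), a log2 fold change of 1.47 (SE 0.22, edgeR adjusted p = 9.31e-05), so BID and the gene of its protease moved in opposite directions. PARP1 rose by 0.69 and DFFB by 0.52, and CASP10 fell by 1.23 on the log2 scale.

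Death receptor pathway genes, a list of receptors, ligands, adaptors and the inhibitor CFLAR at the other end of the route to BID, were 2 higher and 6 lower of 11 tested, with a median log2 fold change of -0.43. Of all tested genes 25.0% were higher and 26.0% lower. CFLAR, the gene of the caspase-8 inhibitor FLIP, was at 130 ± 14.8 CPM in 1CT and 42.8 ± 5.16 CPM in 1CT-A (SD, n = 3 each), a log2 fold change of -1.65 (SE 0.11, edgeR adjusted p = 9.46e-08). TNFRSF10A, a receptor for the ligand TRAIL, fell by 1.93, and its decoy TNFRSF10D fell by 1.09. TNFRSF21 rose by 1.11, and the adaptor FADD rose by 0.22, a call that was lost under several alternatives. Inhibitor of apoptosis genes were 1 higher and 3 lower of 5 tested, beside the same background, with a median of -0.43. BIRC3 fell by 2.65, BIRC2 by 0.91 and BIRC6 by 0.43, while BIRC5 (survivin), which is also a mitotic gene, rose by 0.65.

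Genes whose products hold or turn over BCL2 family proteins were 1 higher and 2 lower of 8 tested, under the 51.0% of all tested genes that passed, with a median of -0.16. DYNLL2, the light chain that tethers BMF, rose by 0.46. BTRC, a ligase subunit that acts on MCL1 and BIM, fell by 0.51. USP9X, the enzyme that spares MCL1 from the proteasome, fell by 0.28 with overlapping libraries. MCL1 and USP9X therefore had opposite signs, although the USP9X call was lost under several alternatives. Over the 7 lists 38 of 64 tested genes passed, 18 higher and 20 lower, beside 51.0% of all tested genes. The lists were written with earlier results of these data known, and their counts are descriptions.

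**Figure D4:**
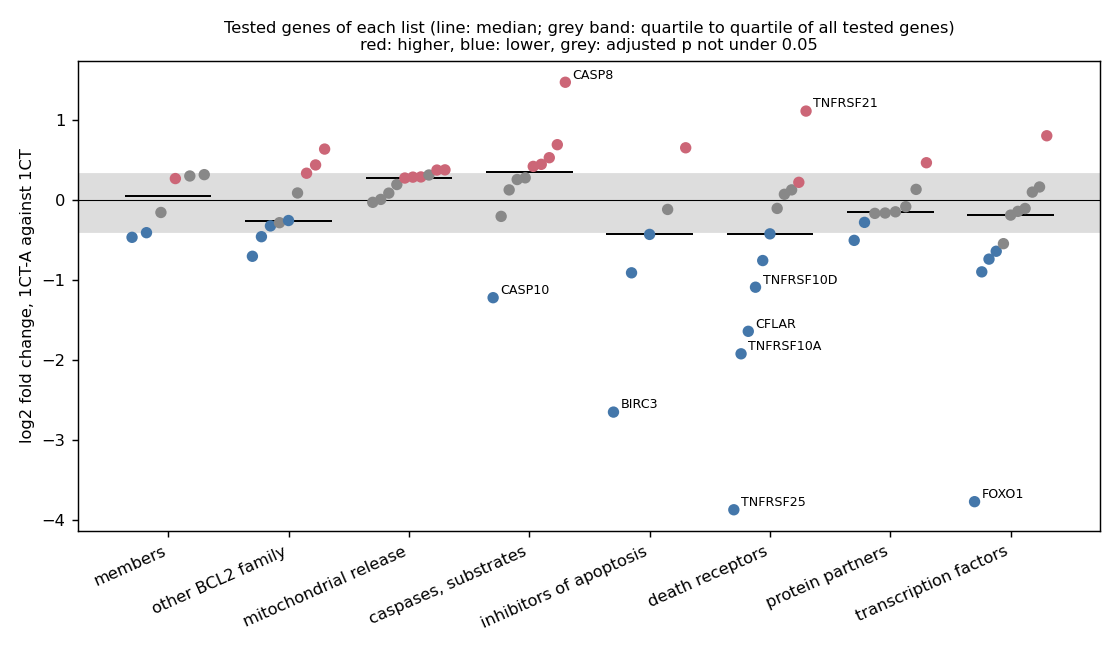
Log2 fold change between 1CT-A and 1CT (y axis) for every tested gene of the members and of the 7 pathway lists (x axis), in order of value within a list, with the median as a line and the range between the quartiles of all tested genes (-0.40 to 0.33) as a grey band. The tested members lie within or near the band, while BIRC3, CFLAR, TNFRSF10A, TNFRSF25 and FOXO1 lie far under it and CASP8 and TNFRSF21 above it. TNFRSF25 is low, with 12, 17 and 15 counts in 1CT and 1, 3 and 0 in 1CT-A.

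Genes whose pattern over the 6 libraries was most like that of MCL1 and of BID were found by the Euclidean distance of centred log2 CPM among the 8224 tested genes whose mean reached 10 CPM. For MCL1 these were ARIH2, CHST14 and OTUD6B-AS1, at distances of 0.0425, 0.0439 and 0.0520. For BID they were VPS16, FAM219B and FAM134C, at distances of 0.0680, 0.0705 and 0.0742. Neither set held another member. Of the members, only MCL1, BCL2L1, BAK1 and BID reached 10 CPM and could enter. BCL2L1 and BID had the opposite sign to MCL1, so their absence near MCL1 adds nothing.

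The 3 calls among the members were kept in each of 14 alternative fits. MCL1 ranged from 0.21 to 0.34 on the log2 scale, BCL2L1 from -0.50 to -0.31 and BID from -0.53 to -0.43, with the highest adjusted p of the 3 genes over these edgeR, DESeq2 and limma fits at 0.0390, for MCL1. The direction of BCL2L2 and of BAK1 depended on 1CT replicate 3.

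**Figure D5:**
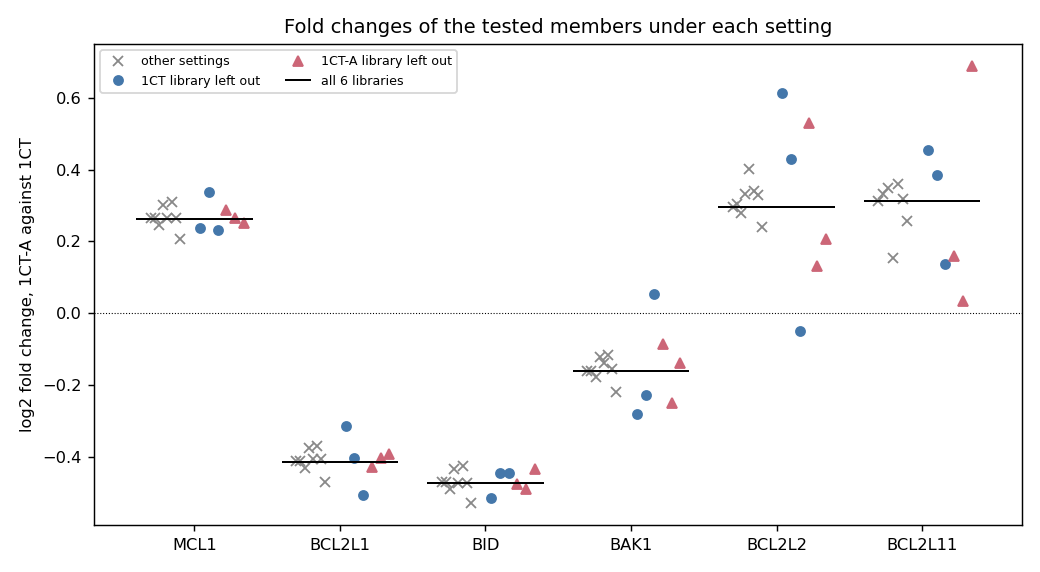
Log2 fold change between 1CT-A and 1CT (y axis) of the 6 tested members (x axis) with all 6 libraries (line), with each 1CT library (blue circles) or 1CT-A library (red triangles) left out, and under other settings (grey crosses). MCL1 stays above 0 and BCL2L1 and BID below it at every point, whereas BAK1 and BCL2L2 cross 0.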

How the data were processed

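For each library, raw read counts per gene symbol were deposited by the authors as whole numbers, without normalization. Per the labels, RNA taken up in Trizol was made into QuantSeq 3′ libraries from 500 ng and sequenced on a NextSeq 500 instrument. The submitters' processing notes name Bowtie2, edgeR and the build hg19. The annotation, the counting tool and the use of strand are not given in the sources used here. Positions and promoters are those of GRCh38, a different build, and describe the annotation only.

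Each file has 25737 entries for 24462 symbols, and counts of 286 repeated symbols were added together. Counts were fitted with edgeR 4.0.16 in R 4.3.3 (TMM factors 0.975 to 1.02, filterByExpr with a minimum count of 10, quasi-likelihood test, two-sided, Benjamini-Hochberg adjustment over 12514 genes, calls under 0.05). The scripts were tested on simulated data. Poisson intervals are at 95%, and ratios used a pseudocount of 0.5 counts. Alternatives were DESeq2 1.42.0, limma-voom (limma 3.58.1), other scalings and filters, a replicate block and each library left out.

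Replicate numbers 1 to 3 occur in both lines, but same-numbered libraries did not deviate together (correlations -0.16, 0.22 and -0.14 over 8224 genes), so the numbers were not taken as pairs. Named are the 10 members, APC, the wider BCL2 family, the identity markers, up to 3 called rises and 3 called falls of each other list among genes of at least 2 CPM, and the 3 nearest genes by pattern of MCL1 and of BID. A gene that this rule also names is not reported here. BCL2L2-PABPN1 and PABPN1 were added for their overlap with BCL2L2, and FOXO3 and TNFRSF25 after their values were seen. The members and lists were chosen with earlier results of these data known.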

Additional observations from a re-analysis of the deposited data

How the results depend on the processing

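The count of members called was 3 in all 14 alternative fits and the count past a fold of 2 was 0, while 5364 to 7238 genes and 34 to 40 list genes were called. Leaving out each library in turn gave log2 fold changes of 0.23 to 0.34 for MCL1, -0.50 to -0.31 for BCL2L1 and -0.51 to -0.43 for BID. It turned the direction of BCL2L2 (-0.048 to 0.61) and BAK1 (-0.28 to 0.055), both only without 1CT replicate 3, and of BAX (-0.072 to 0.24), without 1CT replicate 2 and without 1CT-A replicate 1. Among the ratios it turned BCL2L2 to BAK1 (-0.15 to 1.01) and BID to BCL2L1 (-0.21 to 0.059), both without 1CT replicate 3, and BCL2L11 to MCL1 (-0.35 to 0.43), without 1CT replicate 1 and without 1CT-A replicate 3. For all of these the cause was not tested. With the replicate block the log2 fold changes were 0.27 for MCL1 (edgeR adjusted p = 0.0139), -0.40 for BCL2L1 and -0.47 for BID, and no call among the members changed. Of the list genes, BCL2L13 and FADD lost their call in 8 of 14 alternatives, USP9X in 6 and BNIP3L in 3, and BAD passed without 1CT replicate 1 (-0.42). Depth limits BCL2, BCL2A1, BIK and BMF, which had at most 8 counts in a library, and leaves wide intervals for BCL2L11.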
